A study of Mus musculus with 6 samples.

Results

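Excitation-contraction coupling, the step that turns the electrical signal of a muscle fibre into calcium release and shortening, was followed through 10 genes in the carotid bodies of DBA/2J and A/J mice. The genes were Cacna1s, Cacng1, Ryr1, Trdn, Jph2, Casq1, Casq2, Atp2a1, Sln and Pvalb, chosen for their function. Every probe set whose platform annotation names one of them alone was taken, which gave 18 of the 45101 probe sets on the array. Trdn had 6 probe sets, Ryr1, Sln and Jph2 had 2 each, and the remaining 6 genes had 1 each.

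The carotid body is a small chemosensory organ in the neck that senses blood oxygen. Male mice of the inbred strains DBA/2J and A/J were untreated and 28 days old, and RNA from pooled carotid bodies was put on Affymetrix Mouse 430 2.0 arrays, 3 for each strain. For DBA/2J, arrays 1, 2 and 3 used tissue of 19, 18 and 19 mice (38, 36 and 38 organs), and for A/J of 20, 21 and 19 mice (40, 42 and 38 organs). Each array is therefore a pool, its spread is that between pools, and the strains differ throughout the genome and not at a single allele.

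In a striated muscle fibre, an action potential runs along the surface into the transverse tubules, where the L-type calcium channel (the dihydropyridine receptor) senses the change in voltage. In skeletal muscle that channel is coupled directly to the ryanodine receptor of the sarcoplasmic reticulum, which opens and lets stored calcium into the cytosol. Junctophilins and triadin hold the junction together, calsequestrins bind calcium inside the store, and a calcium ATPase with its small inhibitors pumps calcium back. Parvalbumin, a soluble calcium buffer of fast fibres, speeds relaxation. The carotid body itself is made of type I (glomus) cells, glia-like type II cells, vessels and nerve endings, and is not known as a site of skeletal muscle fibres.

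Most of the coupling genes were much lower in the DBA/2J carotid bodies. Of the 10 genes, 9 had a probe set bright enough to be tested. Pvalb, Trdn, Atp2a1, Ryr1, Casq1, Cacng1 and Casq2 fell, none rose, and Sln and Jph2 did not pass the test (limma, Benjamini-Hochberg adjusted p under 0.05 over 27022 probe sets). Across all 13006 genes tested, 1.6% were called lower in DBA/2J and 2.17% higher. Counted by probe set, 7 of the 11 tested were called lower, against 1.41% of all probe sets tested (3.27% were called in either direction). The 9 tested genes had log2 differences (DBA/2J minus A/J, from values of log2(signal + 16)) from -4.90 to -0.26 with a median of -2.53, where the median of all genes tested was 0.03. The tested genes were kept by their mean over all 6 arrays, so a gene that is bright only in A/J could enter through that strain. Cacna1s and 6 other probe sets lay below that filter. Without the filter all 18 probe sets were fitted, and 11 were called lower, against 0.768% of all probe sets. In bulk tissue, fewer cells of a type and less RNA per cell cannot be told apart.

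**Figure D1:**
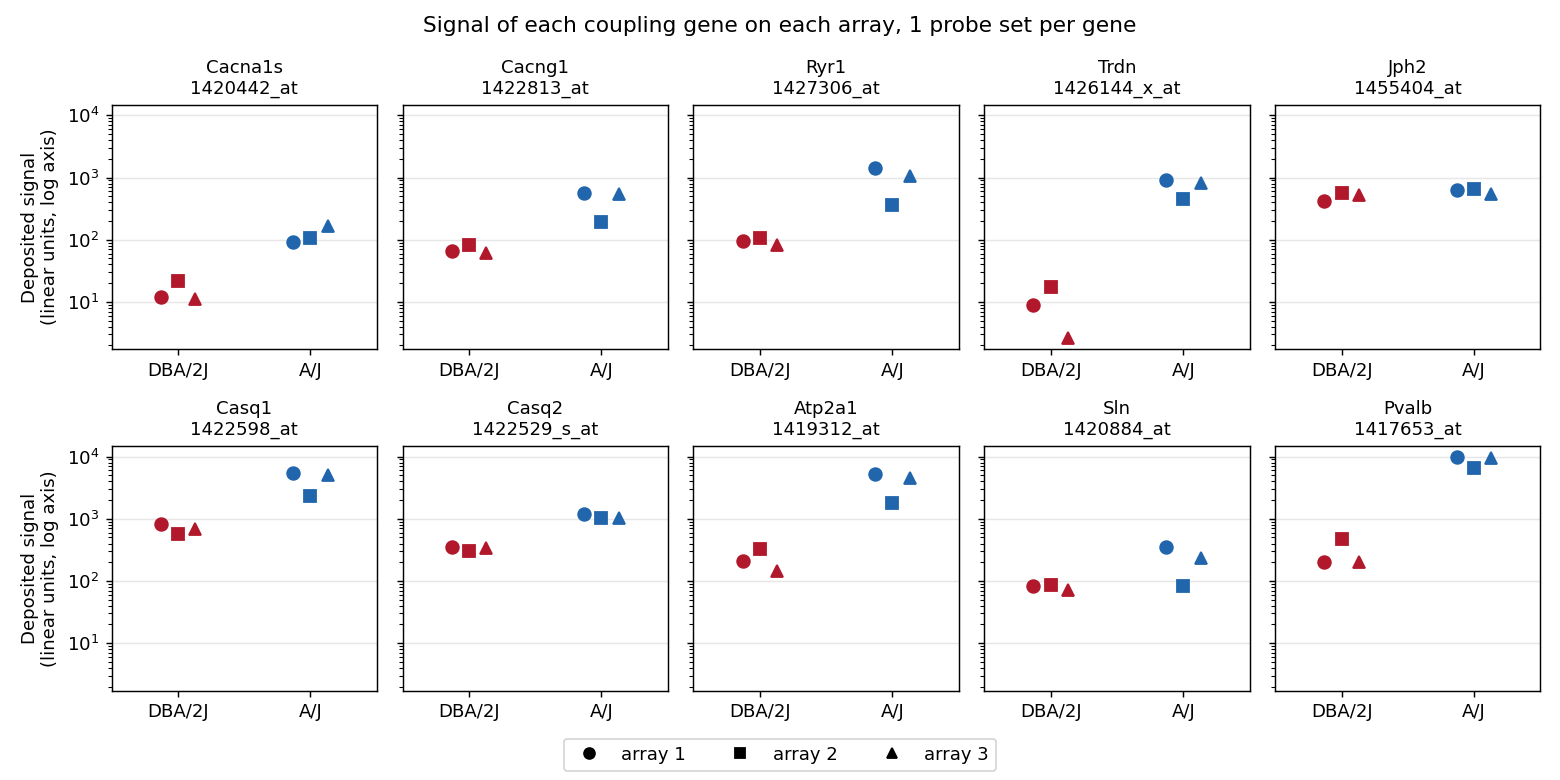
Deposited signal (linear units, log axis) of the 10 coupling genes on the 3 DBA/2J and 3 A/J arrays, 1 probe set per gene, with a symbol for each array. The strains do not overlap for 8 genes, with DBA/2J lower (8.27% of all probe sets), while Jph2 and Sln overlap. Cacna1s, among the 8, lay below the filter. A/J array 2 (squares) is the lowest A/J value for 7 of the 9 tested genes (36.3% of all probe sets).

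The arrays had median signals from 163.6 to 183 in DBA/2J and from 163.8 to 182.8 in A/J. Among type I cell markers, Th, tyrosine hydroxylase, lay between 5535 and 8416 in DBA/2J and between 2760 and 5428 in A/J. Slc18a1, a vesicular monoamine transporter, lay between 431.3 and 1490 in DBA/2J and between 96.3 and 124 in A/J, below the A/J array medians. The ratio of the 3' to the 5' control probe set of Gapdh, a measure of RNA length, was 2.50, 3.28 and 1.73 on DBA/2J arrays 1, 2 and 3, and 1.74, 4.87 and 1.81 on A/J arrays 1, 2 and 3. It was highest on array 2 of each strain. Among the coupling genes, A/J array 2 gave the lowest A/J value at 14 of 18 probe sets, where this held for 36.3% of all probe sets. DBA/2J array 2 gave the highest DBA/2J value at 12 of 18, against 45.4% of all probe sets. The part of RNA length in these values was not tested. Without the arrays numbered 2 of both strains 9 of 11 probe sets were called lower, against 3.42% of all probe sets in that fit.

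The promoter windows of 7 of the 10 genes, from 250 bases before to 50 bases after the start of transcription, are in the RefSeq table for GRCm38.p6 (9 windows, since Jph2 and Pvalb have 2 each). They are shown because 6 of these 7 genes were called lower in DBA/2J, 5 among the tested probe sets and Cacna1s without the filter, and many muscle genes carry E-boxes, the sites of the MyoD family. The letters are those of the C57BL/6J genome and not of either strain. CAGCTG, an E-box whose letters are the same on both strands, lay in the windows of 4 of the 7 genes, and in 16.3% of all 32851 windows of this length. CANNTG, which takes in CAGCTG, lay in those of 6 of the 7 genes and in 72.3% of all windows. Counted by window, as the shares of all windows are, CAGCTG lay in 5 of the 9 and CANNTG in 7. The MEF2 pattern searched (0.557% of all windows), the CArG box bound by serum response factor (1.63%) and TATAAA (13.6%) had no match on either strand in the 9 windows. That MEF2 pattern does not take in every form of the site. A wider form, YTAWWWWTAR (Y is C or T, W is A or T, R is A or G), fits ttatttttag in the Casq2 window. It also fits ttattaatag in a Pvalb window. The share of all windows with the wider form was not counted. For each of the 4 genes with CAGCTG, 1 window is given 5′ to 3′ on the gene's own strand, with CAGCTG in capitals. The other Jph2 window, chr2:163397924-163398223, overlaps the one shown and holds the same CAGCTG, at position -29 from its own start. Jph2 is among them and was not called. Atp2a1 is at chr7:126463024-126463323 on the minus strand, with CAGCTG at position -55 from the start, Casq1 at chr1:172219846-172220145 on the minus strand (position -195), Cacna1s at chr1:136052561-136052860 on the plus strand (position -123) and Jph2 at chr2:163397944-163398243 on the minus strand (position -9).
Atp2a1: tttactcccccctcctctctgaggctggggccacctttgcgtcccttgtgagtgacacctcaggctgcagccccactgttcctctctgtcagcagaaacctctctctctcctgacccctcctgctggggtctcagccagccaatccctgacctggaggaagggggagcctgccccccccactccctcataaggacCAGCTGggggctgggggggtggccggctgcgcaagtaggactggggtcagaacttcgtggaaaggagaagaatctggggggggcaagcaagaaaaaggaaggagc
Casq1: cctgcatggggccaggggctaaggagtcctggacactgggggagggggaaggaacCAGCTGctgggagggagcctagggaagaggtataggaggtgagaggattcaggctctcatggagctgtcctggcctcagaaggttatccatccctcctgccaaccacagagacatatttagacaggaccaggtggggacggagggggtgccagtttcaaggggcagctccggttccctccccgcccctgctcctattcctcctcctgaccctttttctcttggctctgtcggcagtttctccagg
Cacna1s: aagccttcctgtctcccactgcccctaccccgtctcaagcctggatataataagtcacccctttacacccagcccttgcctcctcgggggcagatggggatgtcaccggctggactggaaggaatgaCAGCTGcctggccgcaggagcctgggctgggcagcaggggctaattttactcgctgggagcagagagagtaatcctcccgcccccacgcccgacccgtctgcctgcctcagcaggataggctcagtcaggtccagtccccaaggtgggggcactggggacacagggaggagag
Jph2: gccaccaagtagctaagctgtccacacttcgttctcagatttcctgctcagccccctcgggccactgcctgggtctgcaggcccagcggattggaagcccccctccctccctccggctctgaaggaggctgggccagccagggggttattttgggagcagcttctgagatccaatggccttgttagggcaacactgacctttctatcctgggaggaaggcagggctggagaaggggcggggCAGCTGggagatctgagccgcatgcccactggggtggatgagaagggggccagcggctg

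The skeletal L-type channel, the voltage sensor, was lower in DBA/2J at the pore and gamma subunits, while its beta and alpha-2/delta subunits did not pass. Cacng1, the gamma subunit of the skeletal L-type channel, had signals of 65.6, 83.7 and 60.6 in DBA/2J, against 567, 192.8 and 540 in A/J. The strains did not overlap, and A/J array 2 came closest to DBA/2J. The log2 difference was -2.25 (SE 0.39, limma adjusted p = 0.0153). Its call was lost without DBA/2J array 1 or 3 or A/J array 1 or 3, with limma adjusted p between 0.0545 and 0.0764. Cacna1s, the pore and voltage sensor of that channel, was dim, with 11.9, 21.4 and 11 in DBA/2J, against 90.8, 108.1 and 168.6 in A/J. Every DBA/2J value lay below every A/J value. The probe set fell below the filter on dim values, and without the filter its log2 difference was -2.15 (SE 0.32, limma adjusted p = 0.0141). Unlike most of the other genes, Cacna1s was not lowest on A/J array 2. Cacnb1, the beta subunit, gave 250.8, 212.4 and 323.7 in DBA/2J, against 386.7, 325.5 and 359.8 in A/J, without overlap, but did not pass (log2 difference -0.44, limma adjusted p = 0.396). Cacna2d1, the alpha-2/delta subunit, gave 2126, 1016 and 2515 in DBA/2J, against 1247, 1047 and 1153 in A/J. It overlapped and did not pass at this probe set (0.61, limma adjusted p = 0.413), while its 3 other tested probe sets ran from -2.05 to 0.48 and 1 of them passed. Both were named after their values were seen.

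Ryr1, the calcium release channel of skeletal muscle, was low and even in DBA/2J. Its brighter probe set (1427306_at) gave 95.3, 105.6 and 83.4 in DBA/2J, against 1425, 366.6 and 1062 in A/J. The 3 DBA/2J values lay within 1.27-fold of each other, while the A/J values spanned 3.89-fold with array 2 lowest. The log2 difference was -2.93 (SE 0.43, limma adjusted p = 0.00696). The other probe set (1457347_at) gave 75.3, 84.6 and 108.1 in DBA/2J, against 540.9, 129.7 and 379 in A/J. These values did not overlap either, but the log2 difference of -1.60 did not pass (limma adjusted p = 0.105). It passed without A/J array 2, at -2.17 (limma adjusted p = 0.00874), without array 2 of both strains, at -2.14 (0.00329), and with array weights, at -1.83 (0.0105). In these fits, in that order, 2.37%, 7.88% and 11.1% of all probe sets were called in either direction.

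Trdn, triadin, which joins the ryanodine receptor to calsequestrin inside the junction, was read by 6 probe sets that differed widely. The platform annotation ties them to 3 sequence records, called A, B and C here. At record C, the tested probe set (1426144_x_at) gave 9.0, 17.6 and 2.6 in DBA/2J, against 915.1, 446.3 and 820.8 in A/J. No DBA/2J value came near the lowest A/J value, and the log2 difference was -4.83 (SE 0.35, limma adjusted p = 0.000247). Its DBA/2J signals were about as low as the 16 added before the log or lower, and with 64 added the log2 difference was -3.37 (limma adjusted p = 0.000234). This probe set lay just above the filter, at percentile 40.7 of mean log2 value, and passed it through the A/J arrays. The other 2 probe sets of record C, at percentiles 39.2 and 40.0, lay just below. They gave 12 to 31.4 in DBA/2J and 220.6 to 924.9 in A/J, and their log2 differences without the filter were -3.52 and -4.12 (limma adjusted p = 0.00613 and 0.00464).

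Record B gave a smaller difference and record A almost no signal. At record B (1451801_at) the values were 22.4, 45.2 and 25.9 in DBA/2J, against 175.8, 109.9 and 138.5 in A/J. The strains did not overlap, and the log2 difference without the filter was -1.75 (limma adjusted p = 0.0360). The 2 probe sets of record A lay between 1.9 and 8.8 in DBA/2J and between 2.1 and 27.4 in A/J. These values overlapped, and the log2 differences of -0.53 and -0.34 did not pass without the filter (limma adjusted p = 0.531 and 0.730). The files do not say what distinguishes the records or which dim values exceed background. The suffix _x_at marks probe sets whose probes can also bind other transcripts. It is carried by 1 probe set of record A and by the tested one of record C.

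**Figure D2:**
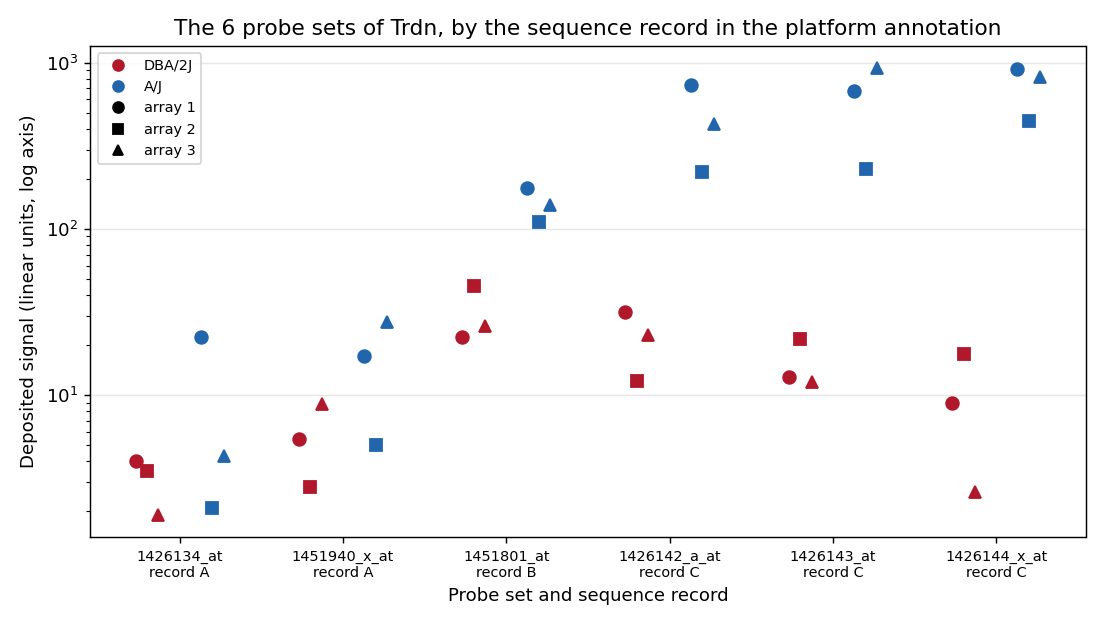
Deposited signal (linear units, log axis) of the 6 Trdn probe sets on the 3 DBA/2J and 3 A/J arrays, ordered by the sequence record of each probe set. The strains lie apart at records B and C, with DBA/2J between 2.6 and 45.2 and A/J between 109.9 and 924.9, and overlap at record A.

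Jph2, a junctophilin that tethers the surface membrane to the calcium store and is also found in heart and smooth muscle, showed little difference. Its brighter probe set (1455404_at) gave 424.9, 554.3 and 531.7 in DBA/2J, against 618.5, 645 and 543.1 in A/J. The strains overlapped, and the log2 difference of -0.26 (SE 0.20) did not pass (limma adjusted p = 0.630). The other probe set (1421453_at) gave 231.5, 411.5 and 287.7 in DBA/2J, against 476, 275.9 and 346.8 in A/J. It overlapped as well, at -0.23 (SE 0.28, limma adjusted p = 0.773).

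Both calsequestrins, the calcium-binding proteins of the store, fell in DBA/2J. Casq1, the form of fast skeletal fibres, gave 830.9, 561 and 684.9 in DBA/2J, against 5520, 2298 and 5150 in A/J. The lowest A/J value, on array 2, was still above every DBA/2J value, and the log2 difference was -2.53 (SE 0.33, limma adjusted p = 0.00377). Casq2, the form of heart and slow fibres that smooth muscle also makes, gave 355.4, 302.4 and 334.2 in DBA/2J, against 1179, 1044 and 1021 in A/J. Its values were the most even of the tested genes within A/J, spanning 1.15-fold, and A/J array 2 did not stand apart. The log2 difference was -1.66 (SE 0.18, limma adjusted p = 0.00164). The _s_at suffix of its probe set marks probes shared by several transcripts.

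Calcium reuptake was measured through a pump and its inhibitor. Atp2a1, the calcium ATPase of fast fibres, gave 207.5, 321.1 and 145.1 in DBA/2J, against 5246, 1787 and 4597 in A/J. The strains lay far apart, with a log2 difference of -3.94 (SE 0.42, limma adjusted p = 0.00131). Sln, sarcolipin, a short peptide that inhibits the pump, gave 83.8, 86.6 and 72.1 in DBA/2J, against 347.5, 83.0 and 233.7 in A/J at its brighter probe set (1420884_at). Here A/J array 2 lay inside the DBA/2J range while the other A/J arrays lay above it. The log2 difference of -1.11 (SE 0.43) did not pass (limma adjusted p = 0.258). Without A/J array 2 it was -1.64 and passed (limma adjusted p = 0.0327). The other Sln probe set (1420883_at) was below the filter, with 14.0, 40.7 and 17.1 in DBA/2J, against 45.9, 93.6 and 37.2 in A/J. There A/J array 2 was the highest, the strains overlapped, and the log2 difference without the filter was -0.89 (limma adjusted p = 0.379).

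Pvalb, parvalbumin, was far lower in DBA/2J. It gave 205.2, 466.6 and 204.4 in DBA/2J, against 9821, 6614 and 9507 in A/J. The strains lay far apart, with DBA/2J array 2 the highest of its strain and A/J array 2 the lowest. The log2 difference was -4.90 (SE 0.32, limma adjusted p = 0.000153). Parvalbumin is also made by some sensory neurons and by interneurons of the brain.

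**Figure D3:**
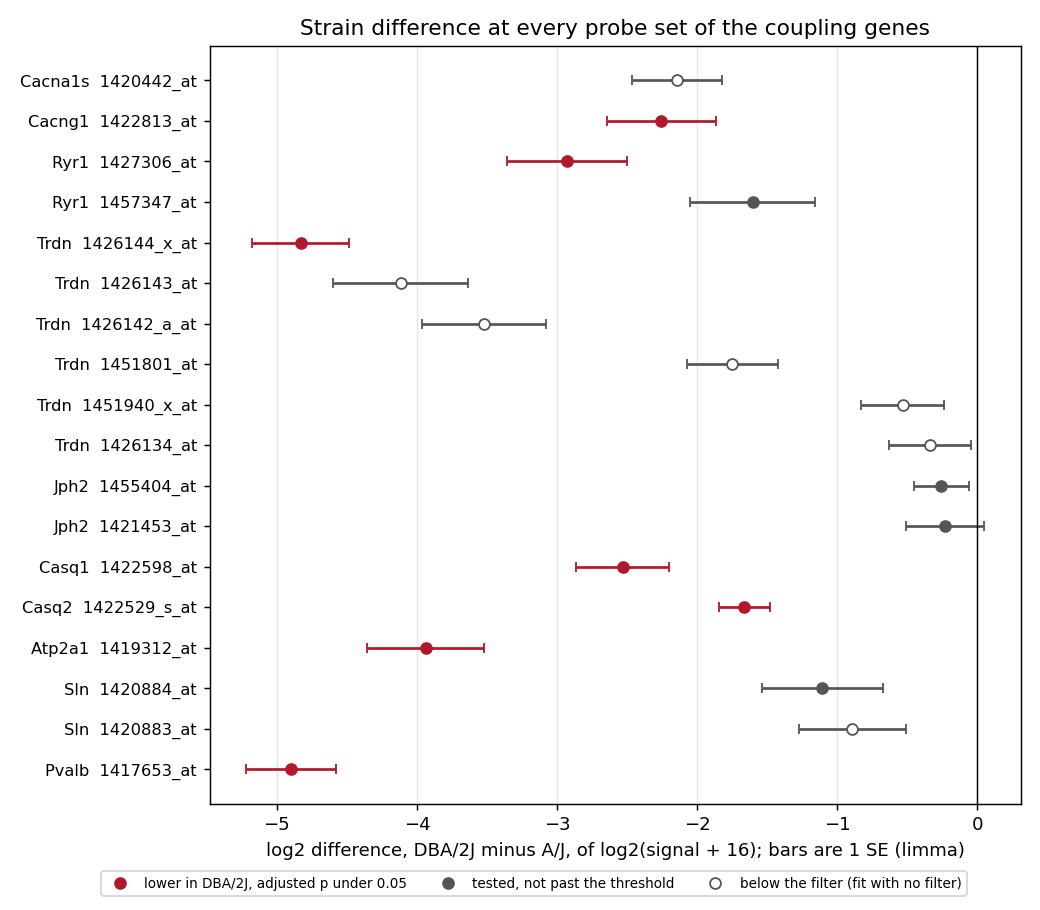
log2 difference, DBA/2J minus A/J, of log2(signal + 16) with its SE from limma for all 18 probe sets. All 18 lie below 0, filled red points passed an adjusted p of 0.05, filled grey points were tested and did not pass, and open points lay below the filter and come from the fit with no filter.

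All 18 probe sets had a lower mean in DBA/2J. At 12 of them every DBA/2J value lay below every A/J value, which held for 8.27% of all probe sets. By the rule the series states (1.5-fold in at least 6 of 9 array pairs and a p under 0.05, here taken from limma without adjustment), 14 of the 18 were lower in DBA/2J, against 4.55% of all probe sets. Within A/J, the highest value of a tested gene was between 1.15-fold (Casq2) and 4.19-fold (Sln) above the lowest. Ryr1, Cacng1, Atp2a1 and Casq1 shared a spread of 2.40-fold to 3.89-fold with array 2 lowest, while Pvalb spanned 1.48-fold and Jph2 1.19-fold.

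Several coupling genes have relatives in other tissues, and pairs were taken on the same array, with only the strains compared. A factor that scales a whole array then nearly cancels for bright probe sets. For dim ones such as Cacna1s it cancels only in part, because a number is added before the log. An effect that differs between the probe sets of an array, as RNA length can, need not cancel. Atp2a2, the calcium ATPase of heart, slow fibres and most other cells, gave 7048, 6513 and 6631 in DBA/2J, against 6321, 6118 and 6217 in A/J, and did not pass (log2 difference 0.11, limma adjusted p = 0.781). Ryr3, a ryanodine receptor of many tissues, gave 200.3, 211.3 and 281.9 in DBA/2J, against 194, 183.1 and 234.4 in A/J, and did not pass either (0.16, limma adjusted p = 0.816). The difference of log2 values between Atp2a1 and Atp2a2 was -4.87 ± 0.55 in DBA/2J and -0.82 ± 0.82 in A/J (SD, n = 3; difference -4.05, exact permutation p = 0.1). That between Ryr1 and Ryr3 was -1.15 ± 0.38 in DBA/2J and 1.94 ± 0.93 in A/J (difference -3.09, n = 3, exact permutation p = 0.1). That between Cacna1s and Cacna1c, the L-type channel of heart and smooth muscle, was -3.18 ± 0.22 in DBA/2J and -0.75 ± 0.43 in A/J (difference -2.43, n = 3, exact permutation p = 0.1). In these 3 pairs the strains did not overlap, and 0.1 is the smallest two-sided p that 3 against 3 arrays allow.

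The other pairs were closer. The difference of log2 values between Casq1 and Casq2 was 1.02 ± 0.17 in DBA/2J and 1.88 ± 0.66 in A/J (difference -0.87, n = 3, exact permutation p = 0.2). DBA/2J array 1 overlapped with A/J array 2 there. That between Jph2 and Jph1, the junctophilin of skeletal muscle, was 1.21 ± 0.22 in DBA/2J and 1.38 ± 0.24 in A/J (difference -0.17, n = 3, exact permutation p = 0.5). Adjusted over the 5 pairs, p was 0.167 for the first 3 and 0.25 and 0.5 for these. Jph1 itself gave 196.4, 247.3 and 182.4 in DBA/2J, against 257.3, 193.9 and 214.6 in A/J, and did not pass (log2 difference -0.08, limma adjusted p = 0.914).

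**Figure D4:**
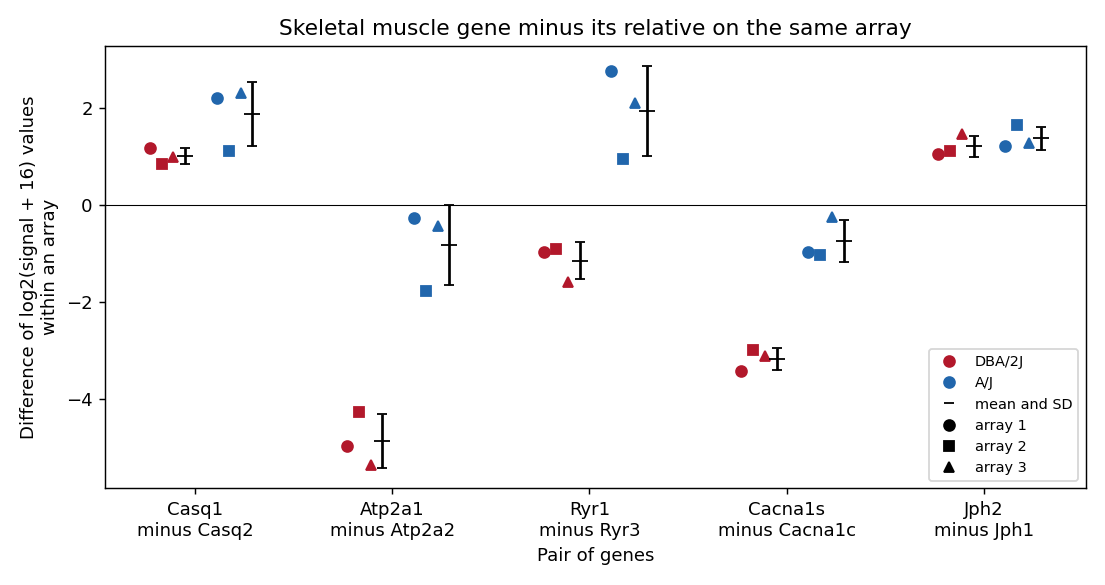
Difference of log2(signal + 16) values between a coupling gene and its relative on the same array, for 3 DBA/2J and 3 A/J arrays with mean and SD. DBA/2J lies below A/J without overlap for the Atp2a1, Ryr1 and Cacna1s pairs (exact permutation p = 0.1 each, the smallest possible) and overlaps with it for the Casq1 and Jph2 pairs. Cacna1s lay below the filter on dim values, and the size of its pair's difference depends on the number added before the log.

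Beyond the 10 genes, a part of the same machinery fell and most of it did not pass. Of 25 other genes of the sarcoplasmic reticulum and triad, 22 were tested. The test called 4 lower and 1 higher and left 17 uncalled, and the list's median was -0.13 on the log2 scale. Among all genes tested 3.77% were called in either direction. Srl, sarcalumenin, a calcium-binding protein of the reticulum, gave 178.8, 277.9 and 173.1 in DBA/2J, against 3065, 1187 and 2066 in A/J (log2 difference -3.16, SE 0.34, limma adjusted p = 0.00147). Hrc, a histidine-rich calcium-binding protein that interacts with triadin, gave 398.4, 487.2 and 379.7 in DBA/2J, against 1967, 983.8 and 2313 in A/J (-1.94, limma adjusted p = 0.0107). Sypl2, mitsugumin of the triad, fell by 2.22 (limma adjusted p = 0.0431), and Tmem38a, a potassium channel of the reticulum, fell by 1.45 (limma adjusted p = 0.0182). All 4 had their lowest A/J value on array 2. Srl was called without each array in turn. Hrc was lost without DBA/2J array 1 (adjusted p = 0.0616) and A/J array 1 (0.0591), and Sypl2 and Tmem38a without DBA/2J array 1 or 3 or A/J array 1 or 3 (adjusted p up to 0.149 and 0.0936).

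Fkbp1b, an immunophilin that binds ryanodine receptors, went the other way. It gave 2480, 3156 and 2570 in DBA/2J, against 852, 852.5 and 1364 in A/J (log2 difference 1.43, SE 0.23, limma adjusted p = 0.0109). Its call was lost without DBA/2J array 1 (adjusted p = 0.0505) or A/J array 1 (0.057). Cmya5, myospryn, a protein of striated muscle, was below the filter, with 13.6, 12.2 and 8.1 in DBA/2J, against 621.7, 248.8 and 1165 in A/J. Its strains did not overlap, and without the filter the log2 difference was -4.43 (limma adjusted p = 0.00398). It was named after its values were seen. Asph, whose gene also encodes junctin, did not pass at its brightest probe set (-0.07), while its 4 other tested probe sets ran from -2.13 to 1.10 and 2 of them passed.

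Of 15 genes of the transverse tubule and its excitation, 7 were tested, 1 fell and 6 did not pass, with a median of -0.09. The gene that fell was Mtm1, myotubularin, a lipid phosphatase made in most tissues. It gave 227.5, 210.2 and 306 in DBA/2J, against 1487, 1827 and 1656 in A/J (log2 difference -2.68, SE 0.21, limma adjusted p = 0.000317). The A/J values were even, with array 2 the highest, unlike most of the coupling genes. Its 2 other tested probe sets gave -2.03 and 0.02, and 1 of them passed. Stac3 and Cav3, both needed at the skeletal muscle membrane, were below the filter. Stac3 gave 18, 52.9 and 16.4 in DBA/2J, against 163.4, 81.2 and 139 in A/J, and Cav3 gave 11.9, 73.7 and 23.9 in DBA/2J, against 381.8, 87.2 and 212.3 in A/J. Neither overlapped between strains, and neither passed without the filter (limma adjusted p = 0.0850 and 0.128). Dysf, dysferlin, also lay below the filter but went the other way, with 125.1, 110.9 and 174.4 in DBA/2J, against 40, 97.4 and 40 in A/J. Its strains did not overlap, and it did not pass without the filter (log2 difference 1.09, limma adjusted p = 0.247). Stac3, Cav3 and Dysf too were named after their values were seen.

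Of 13 genes of calcium entry and extrusion at the surface membrane, 12 were tested, 1 was called higher and none lower, and the median of the list was -0.09. Unadjusted, 3 of the 12 had a limma p under 0.05. Atp2b3, a plasma membrane calcium pump of neurons, rose to 609.1, 625.7 and 558.8 in DBA/2J, against 253.4, 309.6 and 283.6 in A/J (log2 difference 1.04, SE 0.19, limma adjusted p = 0.0182). Its other tested probe set gave 0.46 and did not pass, and its call was lost without DBA/2J array 1 or A/J array 1 or 3 (adjusted p up to 0.0989). Stim1, the calcium sensor of store-operated entry, and Orai1, its channel, did not pass (log2 differences -0.16 and -0.13, limma adjusted p = 0.780 and 0.809). Over the 3 lists, 7 of 41 tested genes were called, and this number fell to 3 without DBA/2J array 1, 2 without A/J array 1 and 4 without A/J array 3. The share of all probe sets called fell too, from 3.27% to 1.26%, 1.55% and 1.46% in these fits.

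**Figure D5:**
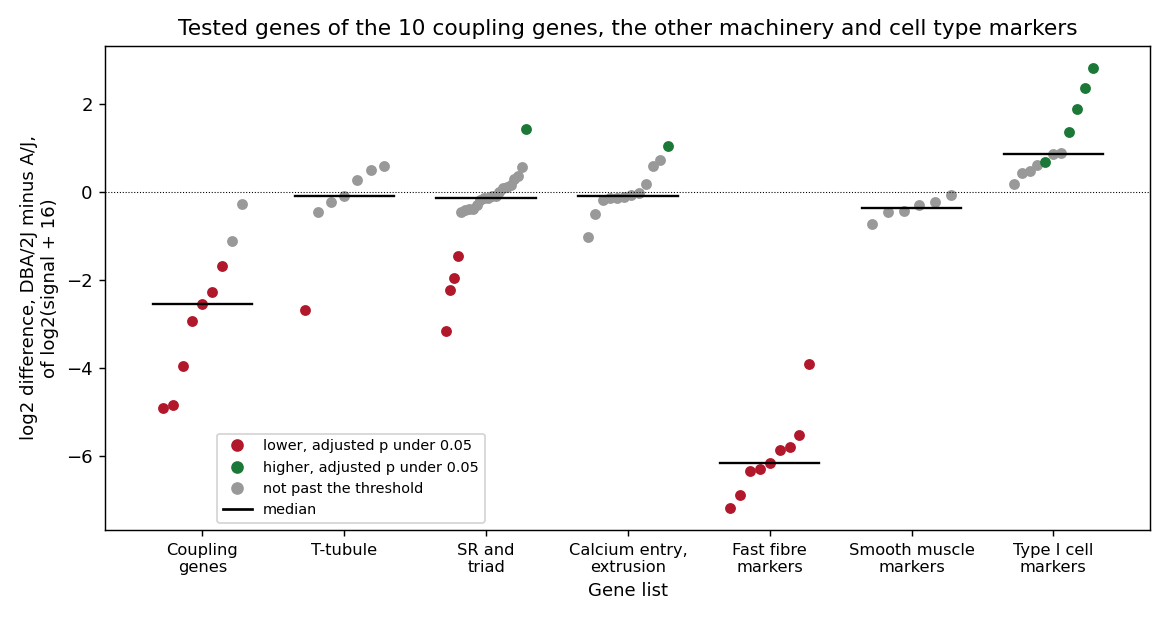
log2 difference, DBA/2J minus A/J, of log2(signal + 16) for each tested coupling gene and each tested gene of the other lists, with the median of each list as a line. The coupling genes (median -2.53) lie between the other machinery (medians -0.13 to -0.09) and the fast fibre markers (median -6.15), while the type I cell markers have a median of 0.88.

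Markers of fast skeletal fibres moved with the coupling genes. Of 10 such markers, 9 were tested and all 9 fell, with log2 differences from -7.17 (Tnnc2, fast troponin C) to -3.90 (Actn3, the alpha-actinin of fast fibres) and a median of -6.15. Summed, the 10 markers made up between 0.00206% and 0.00442% of the signal in DBA/2J and between 0.115% and 0.283% in A/J. Each of the 9 was lowest in A/J on array 2, which held for 36.3% of all probe sets. The part of fast fibres in the strain difference of the coupling genes was not tested. Of 7 slow fibre markers, 4 were tested and none was called, with a median of 0.02, and 2 had an unadjusted limma p under 0.05. They made up between 0.00196% and 0.00350% of the signal in DBA/2J and between 0.00254% and 0.00300% in A/J.

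Smooth muscle markers, which bear on Casq2 and Jph2, differed less. All 6 were tested and none was called, although 2 had an unadjusted limma p under 0.05; the median was -0.36 on the log2 scale. They made up between 0.0867% and 0.120% of the signal in DBA/2J and between 0.116% and 0.133% in A/J. Of 9 cardiac markers, 5 were tested and Actc1 alone was called, an actin of heart and developing skeletal muscle (log2 difference -2.17, limma adjusted p = 0.0138). Its values were 823.6, 603.1 and 561.4 in DBA/2J, against 4691, 1599 and 3546 in A/J. The cardiac markers made up between 0.00482% and 0.00714% of the signal in DBA/2J and between 0.00906% and 0.0188% in A/J. Actc1 is part of that sum. The 4 other tested cardiac markers were not called, and the median of the list was 0.002 on the log2 scale. Sensory neuron markers, which bear on Pvalb, were not called in any of the 3 tested, 1 of which had an unadjusted limma p under 0.05. They made up between 0.0134% and 0.0169% of the signal in DBA/2J and between 0.00862% and 0.0144% in A/J.

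Type I cell markers ran the opposite way. Of 11 tested, 5 rose and the other 6 were not called, the median was 0.88, and their summed share was between 0.168% and 0.182% in DBA/2J and between 0.0880% and 0.106% in A/J. Adipocyte markers were lower in part, with Ucp1 and Fabp4 called among 5 tested and a summed share between 0.0783% and 0.126% in DBA/2J and between 0.150% and 0.216% in A/J. The part of these cells in the coupling genes was not tested.

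The genes whose profile over the 6 arrays was most like the average of the 9 tested coupling genes were Asb5, Rgcc, Mlf1, Hjv and Srl. Likeness was the root mean square difference between log2 values, each centred on its own mean. It was 0.104 for Asb5, a subunit of ubiquitin ligases found in muscle, 0.122 for Rgcc, 0.177 for Mlf1, 0.248 for Hjv, a regulator of hepcidin made in skeletal muscle and liver, and 0.268 for Srl. For the coupling genes themselves it ran from 0.274 (Ryr1) to 1.29 (Jph2). Asb5 gave 136.2, 127.2 and 99.3 in DBA/2J, against 1119, 545 and 1025 in A/J. Arrays of a strain share its genome and tissue, so such likeness is a description of these 6 arrays.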

How the data were processed

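The deposited values are linear array intensities, 1 per probe set and array, and the 2%-trimmed mean of each array is 500.0, so the authors had scaled them to a common level. Which software made them the sources used here do not state. Per the labels' protocols, RNA was extracted with Trizol and amplified through repeated cDNA synthesis from the poly(A) end and in vitro transcription, which can lower the reading of probe sets distant from the transcript's 3' end. No detection call was used. Probe sets were named from the platform annotation, updated by gene identifier with the RefSeq table.

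The fits used limma 3.58.1 under R 4.3.3. Leaving out 64 control probe sets, signals became log2(signal + 16), of which the upper 60% by mean over 6 arrays were kept. The strain contrast (DBA/2J minus A/J) came from lmFit, and eBayes with trend = TRUE gave its two-sided test. A gene was read from its brightest kept probe set. The numbers 1 to 3 only name the arrays. Permutation tests used scipy 1.17.1. On simulated data for this comparison (27022 probe sets, 200 changed), the test called 31% of the 2-fold changes and 94% of the 4-fold changes, and 10 of its 135 calls were false. The simulated noise was normal, with the SD from limma, and independent between arrays and probe sets. It held no effect shared by the probe sets of an array, so the shares for the real arrays can differ.

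The coupling genes and all lists were chosen with earlier results of these data known, so their counts are not independent evidence. Named by rule are the 10 coupling genes, up to 6 called genes of each machinery list by adjusted p, the paired relatives and the 5 nearest genes by profile. Outside that rule, Cacnb1, Cacna2d1, Cmya5, Asph, Stac3, Cav3, Dysf, Stim1 and Orai1 of the machinery lists are named too, as are some cell type markers.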

Additional observations from a re-analysis of the deposited data

How the results depend on the processing

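No direction turned for any tested coupling gene or pair under the alternatives run: pseudocounts of 1 and 64 (at 1, Trdn dropped below the filter), no filter or the upper 40%, quantile or median scaling, weighted arrays, eBayes with no trend, averaging a gene's probe sets (Sln and Trdn then dropped below the filter, and 6 of 7 genes were called lower), blocks, and leaving out arrays. Leaving out each array, between 6 and 9 probe sets and between 6 and 8 coupling genes were called lower, and between 2 and 8 genes of the other machinery were called. Of all probe sets, between 1.26% (without DBA/2J array 1) and 5.00% (without DBA/2J array 2) were called in these fits, in either direction. With no filter, 11 of 18 probe sets were called lower, against 0.768% of all probe sets. Array titles share a number between strains in 2 pairs, whose deviations from the strain means correlated at -0.26 and 0.04, so the numbers do not show a pairing. With that number as a fixed replicate block, which leaves 1 residual degree of freedom and rests on those 2 pairs, the counts of probe sets, coupling genes and other genes were all 0. In that fit 0 of all 27022 probe sets were called. With the number as a random block these counts were 7, 7 and 7, where 3.14% of all probe sets were called. Adjusting p over genes, chosen after seeing the data, gave 7 of 9 coupling genes and 7 of 41 others. The share of all genes in that setting is not given here. Some log2 differences moved by over 1.5-fold. With pseudocounts these were the pair of Cacna1s and Cacna1c (-3.28 at 1 and -1.46 at 64) and Trdn (-3.37 at 64), without array 2 of both strains Atp2a1 (-4.70), Cacng1 (-2.85) and Ryr1 (-3.57), and with averaged probe sets Ryr1 (-2.27). With 3 arrays per strain and no detection call, values of dim probe sets have no known floor.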

Other observations

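Markers of muscle precursor cells were dim. Of Pax7, Myf5, Myod1 and Myog, only Myod1, a transcription factor that commits cells to muscle, was bright enough to be tested, with 157.9, 117.9 and 107.6 in DBA/2J, against 197.5, 111.3 and 198.6 in A/J (log2 difference -0.34, limma adjusted p = 0.670). The strains overlapped. Myog, a factor of muscle differentiation, lay below the filter, with 64, 67.6 and 51.6 in DBA/2J, against 176.1, 121.1 and 118.9 in A/J. These values did not overlap, but the log2 difference of -0.99 did not pass without the filter (limma adjusted p = 0.174).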
